A study of Mus musculus with 8 samples.

Results

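The genes described here are the chemokines of the Ccl and Cxcl series and the chemokine receptors of the Ccr and Cxcr series, as measured in the skin of mouse embryos labelled null for Pparg and of their controls. A gene was a member when the platform annotation gave its array row exactly 1 symbol and that symbol began with Ccl, Cxcl, Ccr or Cxcr followed by a digit. That took 53 rows, and with the brightest row standing for a gene, 48 of 19938 genes: 19 CC ligands, 13 CXC ligands, 10 CC receptors and 6 CXC receptors. Another 7 rows name several Ccl21 or Ccl27 gene copies at once and were not assigned to any gene, so Ccl21 and Ccl27, ligands of Ccr7 and Ccr10, are not described.

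Full-thickness skin was taken late in gestation, at E17.5, for 4 samples labelled PPARgamma null (PpargΔ/Δ) and 4 labelled PPARgamma wildtype (control), all of a mixed C57BL6/SV129 background. Each RNA was hybridised to 1 single-colour Affymetrix whole-transcript array. Pparg encodes PPARgamma, the nuclear receptor on which adipocyte formation depends; the groups compare skin labelled as having and lacking it. Neither the deleted exons nor the cells and means of deletion are stated, and no litter is given, so p-values measure the spread between these RNAs.

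Chemokines are small secreted proteins that direct the migration of cells, above all leukocytes, along gradients held on tissue surfaces. They bind seven-helix receptors coupled to inhibitory G proteins, and the names CC and CXC tell whether the first conserved cysteines stand side by side or are parted by one residue. Some are made constantly and place cells during development, as Cxcl12 does through Cxcr4, while others are induced by inflammation through NF-kB or interferon. In skin, keratinocytes, fibroblasts, mast cells, macrophages and endothelium all make chemokines, and skin-homing T cells carry Ccr4, Ccr8 and Ccr10.

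The arrays were closely correlated. Pairs correlated across all 35556 rows at r = 0.989 to 0.994. Their medians lay between 6.93 and 6.96 on the log2 scale, a closeness that RMA brings about by normalizing quantiles. The tissue label was borne out by its markers: the 7 keratinocyte markers averaged 12.21 to 12.45 on the Pparg null arrays and 12.20 to 12.34 on the control arrays, and the 6 dermal fibroblast markers 11.77 to 11.94 and 11.87 to 11.96. Pparg itself read 9.14, 9.19, 9.19 and 8.98 on the Pparg null arrays, against 8.79, 8.88, 9.04 and 9.06 on the control arrays. It was not lower where the label says null, and without the deleted part being known this row does not check the labels. All 8 listed adipocyte genes lay lower on the Pparg null arrays, with a median difference of -0.87, and 4 of them (Cd36, Fabp4, Lpl and Aqp7) passed an adjusted limma p of 0.05. Scores along the first principal component were highest for Pparg null array 4, at 21.7, far above all others. Control array 1 came next at 8.62, followed by Pparg null array 2 at 3.12, and the remaining arrays ran from -9.02 to -4.44. Xist was high, at 12.10 to 12.27, on Pparg null arrays 3 and 4 and control arrays 1 and 4, and low, at 4.86 to 5.39, on the other 4.

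Most measured differences of chemokine and receptor transcripts between Pparg null and control skin were small, and none was resolved. None of the 48 genes passed the limma threshold of an adjusted p of 0.05 over all genes. Across all genes 0.0802% passed, 0.0752% lower and 0.00502% higher in Pparg null skin. Their smallest adjusted p was 0.699, that of the monocyte attractant Ccl7, and the other 47 had 0.999959. At an unadjusted limma p under 0.05, 1 member lay lower (Ccl7) and 1 higher (Ccr8, a chemokine receptor of T cells), or 4.17% of the family against 3.57% of all genes (1.83% lower and 1.74% higher). Groups that do not overlap were found for Ccl7 alone, or 2.08% of members, where 2.32% of all genes had them (1.48% lower and 0.833% higher).

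The family as a whole was centred near 0. Its median difference, Pparg null minus control, was 0.011 on the log2 scale, beside 0.0010 over all genes; 23 members lay below control and 25 above, or 47.9% below against 49.4% of all genes. By size, 34 members differed by less than 0.1, 10 by 0.1 to 0.2, and 4 by more than 0.2, namely Ccr8, Ccl7, Cxcl13 and Ccl2. At least 1.2-fold apart were 3 members, or 6.25%, beside 1.35% of all genes. The members were also noisier than most genes, with a median SD within a group of 0.137 against 0.0968 over all genes.

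What size of difference these arrays leave room for can be read from the 95% confidence intervals. For 46 of 48 members the interval lay within 1.5-fold in both directions. The 2 whose interval reached beyond 1.5-fold were Ccr8 (0.18 to 1.38) and Cxcl13 (-0.70 to 0.15). RMA values of dim rows are compressed towards the background, so a true fold can be larger than the one measured.

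**Figure D1:**
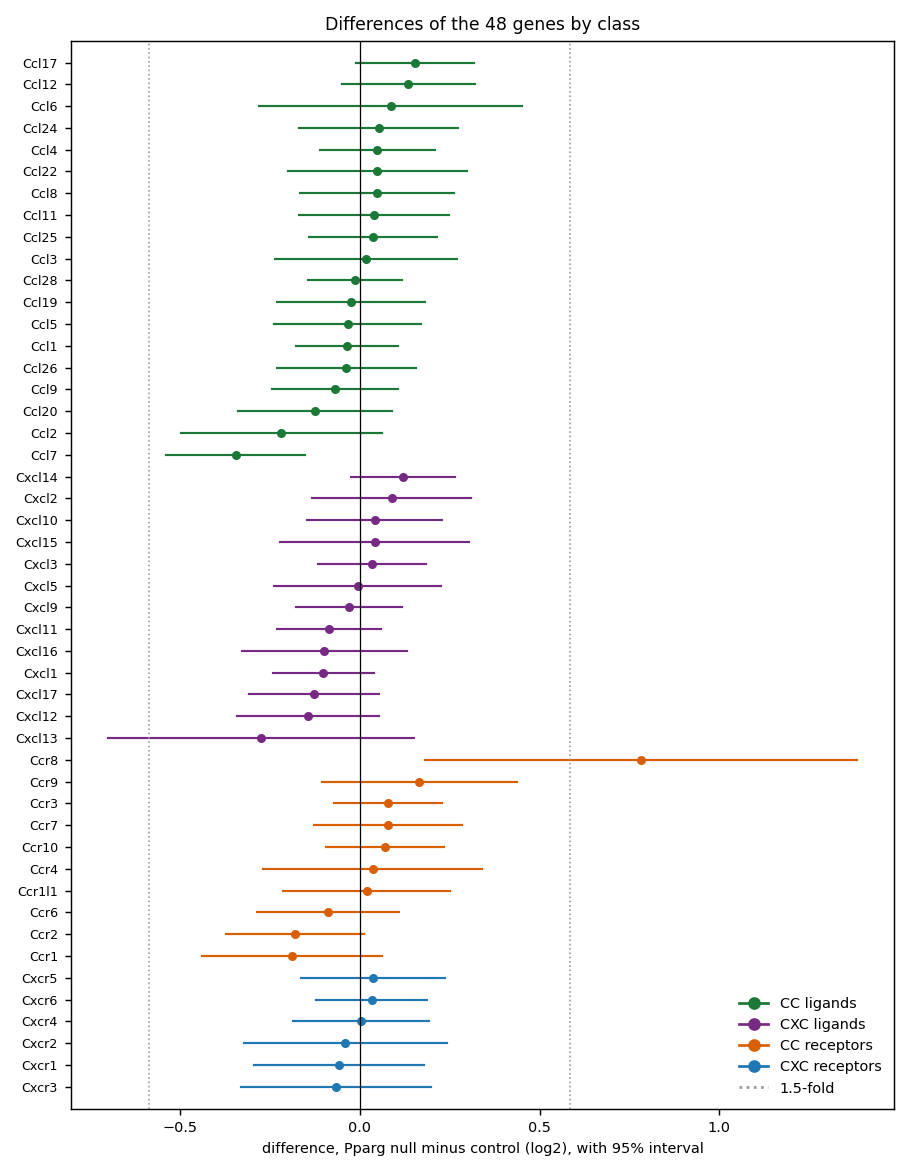
Difference between 4 Pparg null and 4 control arrays (log2, Pparg null minus control) for the 48 genes, grouped by class and sorted within it; points are means and lines 95% confidence intervals from limma, and dotted lines mark 1.5-fold. All intervals but those of Ccr8 and Ccl7 cross 0, and those of Ccr8 and Cxcl13 extend past 1.5-fold.

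Signal was low for many members. Of the 48, 25 lay above the 30th percentile of their array on at least 4 of 8 arrays and 23 did not, and only 4 (Cxcl14, Cxcr4, Cxcl12 and Ccr4) had a mean above the median gene. The brightness of a row also depends on its probes, so the order of rows is not an order of transcript amounts. The 25 brighter members had a median difference of -0.024 and the 23 dimmer ones of 0.033. In bulk skin, fewer cells of a type and less RNA per cell cannot be told apart.

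**Figure D2:**
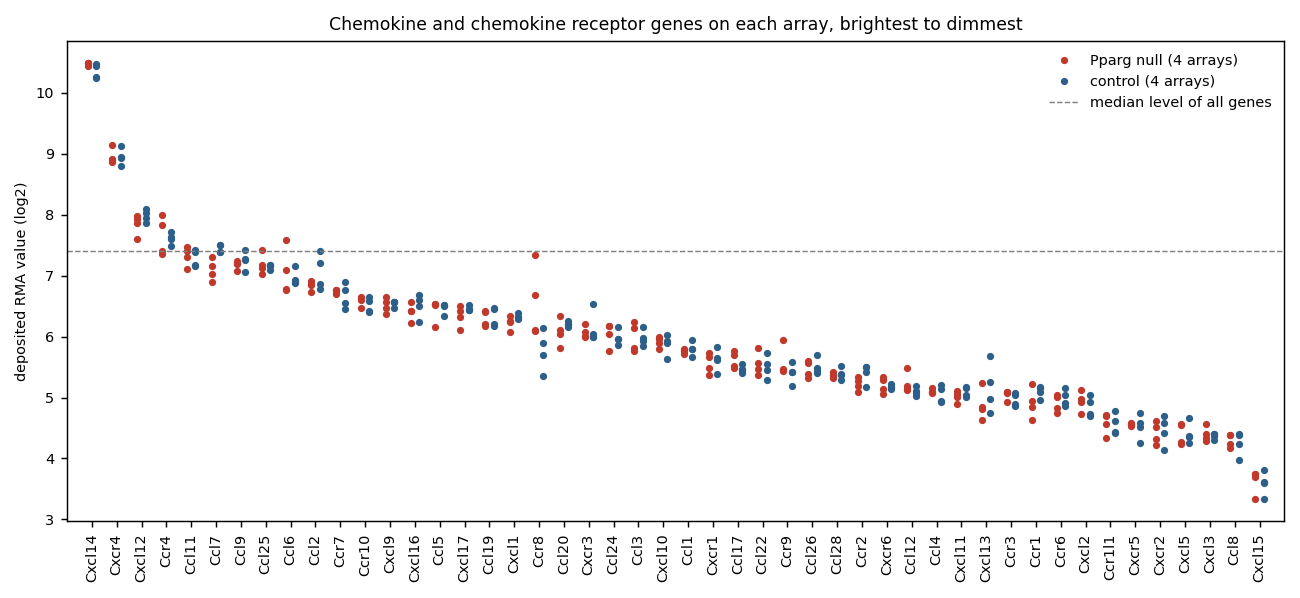
Deposited RMA value (log2) of each of the 48 genes on the 4 Pparg null arrays and the 4 control arrays, from the brightest row to the dimmest; the dashed line is the median level of all genes. The points of both groups overlap for every gene but Ccl7, and the 2 highest points of Ccr8 belong to Pparg null arrays.

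Among the CC ligands of monocytes and eosinophils, Ccl7 was the gene with the clearest difference. Ccl7, which draws monocytes through Ccr2, read 7.31, 7.15, 7.03 and 6.89 on Pparg null arrays 1 to 4, against 7.38, 7.50, 7.38 and 7.50 on control arrays 1 to 4. The highest Pparg null value lay below the lowest control value, and the control values were close together. The means were 7.10 ± 0.18 and 7.44 ± 0.07 (SD, n = 4 each), a difference of -0.35 (SE 0.087, 95% interval -0.54 to -0.15), or 1.27-fold lower in Pparg null skin. The limma adjusted p was 0.699 (unadjusted 0.00261), and permuting the group labels exactly (two-sided) gave p = 0.0286, a floor for 4 arrays against 4. By unadjusted p, 74 of all genes stood at or before Ccl7, itself included. Among the 4 arrays with high Xist the difference was -0.48 and among the 4 with low Xist -0.21.

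The neighbours of Ccl7 in the genome lay to both sides of control. In the RefSeq gene order of mouse chromosome 11, Ccl2, Ccl7, Ccl11, Ccl12, Ccl8 and Ccl1 lie in one run; 3 of these 6 lay below control and 3 above, with a median difference of 0.0022. Ccl2, the best-known monocyte attractant and another Ccr2 ligand, read 6.85, 6.87, 6.73 and 6.91 on the Pparg null arrays, against 6.77, 6.86, 7.20 and 7.40 on the control arrays. The Pparg null values were tightly grouped, and control arrays 3 and 4 were above them while control arrays 1 and 2 were within their range (difference -0.22, 95% interval -0.50 to 0.06, exact permutation p = 0.286). Ccl12, a rodent ligand of Ccr2, read 5.19, 5.13, 5.48 and 5.14 in Pparg null skin, against 5.03, 5.19, 5.07 and 5.11 in control skin. Pparg null array 3 was apart from the other 7 values, which overlapped.

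The eotaxin Ccl11, which attracts eosinophils through Ccr3, read 7.41, 7.11, 7.31 and 7.47 on the Pparg null arrays, against 7.42, 7.18, 7.16 and 7.39 on the control arrays. The ranges of Ccl11 were nearly the same, with a difference of 0.040 (95% interval -0.17 to 0.25). The further eotaxins Ccl24 and Ccl26 differed by 0.052 and -0.037. Ccl8 and Ccl1, ligands of Ccr8 in the mouse, differed by 0.048 and -0.035, and their receptor is the gene with the largest difference of the family.

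**Figure D3:**
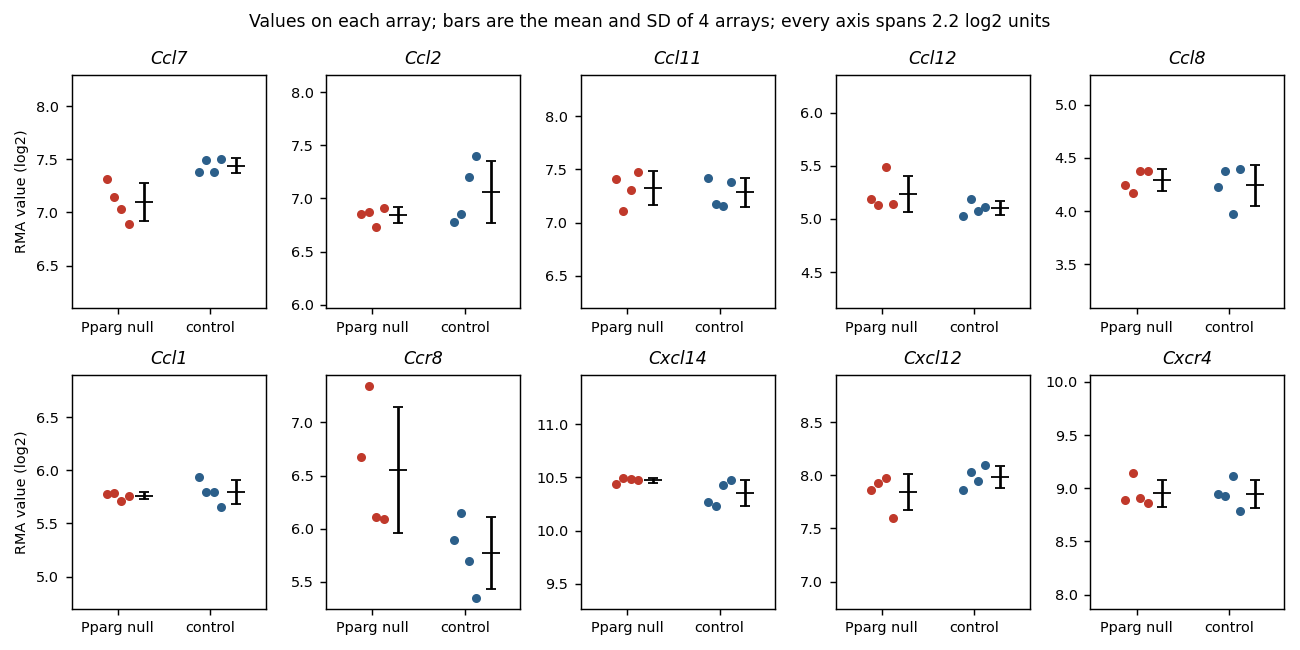
RMA values (log2) of 10 genes on each of 4 Pparg null and 4 control arrays, with mean and SD beside the points; the first 6 panels are the chromosome 11 run around Ccl7, and all axes span the same number of log2 units. Ccl7 is lower on all 4 Pparg null arrays, its neighbours overlap between groups, and Ccr8 spreads most, from 6.09 to 7.34 in Pparg null skin and from 5.35 to 6.14 in control skin.

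Receptors for these ligands were dim. Ccr2, the receptor of inflammatory monocytes, read 5.09, 5.34, 5.26 and 5.19 on the Pparg null arrays, against 5.41, 5.50, 5.51 and 5.17 on the control arrays. Control arrays 1 to 3 were above all Pparg null arrays and control array 4 was among them (difference -0.18, 95% interval -0.37 to 0.01, limma unadjusted p = 0.0615). Ccr1, a receptor of Ccl3 and Ccl9, differed by -0.19, Ccr3 by 0.078 and the related Ccr1l1 by 0.020.

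The macrophage and mast cell markers that bear on these genes were measured beside them. Of 13 macrophage and monocyte markers 11 were measured, 6 below control and 5 above (median -0.02), and their mean level ran from 8.04 to 8.28 on the Pparg null arrays and from 8.14 to 8.25 on the control arrays. Of 8 mast cell markers 6 lay below control (median -0.079, mean -0.25), with mean levels of 8.60 to 8.74 in Pparg null skin and 8.75 to 8.99 in control skin. These ranges nearly touch, all 8 markers overlapped between groups one by one, and Tpsab1, Mcpt4 and Ms4a2 carried most of the mean difference. The tryptase gene Tpsab1 read 6.48, 6.67, 6.51 and 6.37 on the Pparg null arrays, against 8.40, 6.14, 7.82 and 7.74 on the control arrays. Control array 2 was thus below all Pparg null arrays for Tpsab1 and the other control arrays above them. Kit, the mast cell growth factor receptor, and the proteases Cma1 and Tpsb2 differed by -0.025, -0.055 and 0.025, and the IgE receptor gene Fcer1a averaged 4.71 in Pparg null skin and 4.71 in control skin. The mast cell protease Mcpt4 averaged 9.92 in Pparg null skin and 10.42 in control skin, Tpsab1 6.51 and 7.52, and Ms4a2 6.42 and 6.72 (limma unadjusted p = 0.00235, 0.0249 and 0.0463), and none of the list passed the adjusted threshold. The brightest mast cell marker, Cpa3, averaged 12.37 in Pparg null skin and 12.47 in control skin. The macrophage markers Mrc1 and C1qb averaged 9.86 and 9.42 in Pparg null skin, against 9.90 and 9.44 in control skin. The part of mast cells or macrophages in the Ccl7 difference was not tested.

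A second run on chromosome 11 holds the myeloid ligands Ccl5, Ccl9, Ccl6, Ccl3 and Ccl4, with differences from -0.069 to 0.086. Ccl9, a rodent ligand of Ccr1, read 7.08, 7.20, 7.24 and 7.20 on the Pparg null arrays, against 7.25, 7.42, 7.28 and 7.05 on the control arrays. Ccl6, its rodent relative, read 6.76, 7.09, 6.78 and 7.58 on the Pparg null arrays, against 6.89, 6.87, 7.16 and 6.93 on the control arrays. The high value of Ccl6 came from Pparg null array 4 alone, and without that array and control array 1 its difference was -0.11 in place of 0.086. Ccl5, a T cell attractant, Ccl3 and Ccl4 had overlapping groups and differed by -0.033, 0.018 and 0.049.

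Ccr8 had the largest difference of the family, towards higher values in Pparg null skin. Its row was dim, with a mean over the 8 arrays at percentile 31.5 of all genes. Ccr8, a receptor of skin-resident T cells and of regulatory T cells, read 6.68, 7.34, 6.11 and 6.09 on Pparg null arrays 1 to 4, against 5.89, 6.14, 5.69 and 5.35 on control arrays 1 to 4. Arrays 1 and 2 of the Pparg null group were above all control arrays, while arrays 3 and 4 of that group lay just below control array 2, so the groups overlapped. The means were 6.55 ± 0.59 and 5.77 ± 0.34 (SD, n = 4 each), a difference of 0.78 (SE 0.269), or 1.72-fold higher in Pparg null skin. The limma adjusted p was 0.999959 (unadjusted 0.0158), and the exact two-sided permutation p was 0.0857. Of all genes, 4 lay higher in Pparg null skin by this much or more, Ccr8 included, yet 236 had an unadjusted p at or under that of Ccr8, since its spread was wide.

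In both groups the mean of Ccr8 was higher on the arrays with low Xist. In the arrays with low Xist, Ccr8 averaged 7.01 in Pparg null skin and 5.92 in control skin, a difference of 1.09 (n = 2 each). In the arrays with high Xist it averaged 6.10 and 5.62, a difference of 0.48 (n = 2 each). With Xist as a covariate the difference was 0.78 with a limma adjusted p of 0.857 (unadjusted 0.00363). When 1 array was left out the difference of Ccr8 ran from 0.52, without Pparg null array 2, to 0.94, without Pparg null array 4, and its unadjusted limma p reached 0.0511 without control array 4. Without control array 1 and Pparg null array 4 together it was 0.98 (limma unadjusted p = 0.0109).

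T cell markers were measured beside Ccr8. Of 10 listed T cell markers 7 were measured and 5 of these lay under the 30th percentile; 4 were below control and 3 above, with a median of -0.05. Their mean level ran from 5.41 to 5.67 on the Pparg null arrays and from 5.53 to 5.59 on the control arrays. Cd3e, a chain of the T cell receptor complex, averaged 6.42 in Pparg null skin and 6.41 in control skin, and Nkg7, a cytotoxic granule protein, 6.62 and 6.41. The part of T cells or of sex in the Ccr8 difference was not tested.

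The promoter of Ccr8 is shown as the gene with the largest difference. It comes from RefSeq, build GRCm38.p6, at chr9:120091883-120092132 on the + strand, the 250 bases before the start of the gene. Capitals mark the match to the NF-kB motif searched on both strands: GGGA, any 4 bases, then CC. Neither AGGTCA, the half-site of nuclear receptors, nor the PPAR response element, which is AGGTCA, any base, AGGTCA, was found in this window.
Ccr8: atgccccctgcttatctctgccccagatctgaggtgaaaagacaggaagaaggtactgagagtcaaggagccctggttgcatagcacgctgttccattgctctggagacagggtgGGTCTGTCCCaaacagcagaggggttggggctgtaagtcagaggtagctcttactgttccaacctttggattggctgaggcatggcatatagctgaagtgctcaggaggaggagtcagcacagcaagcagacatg

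Apart from Ccr8, the skin-homing and homeostatic CC ligands and receptors given next differed by less than 0.2. Ccr4, carried by skin-homing T cells, read 7.35, 7.83, 7.41 and 8.0 on the Pparg null arrays, against 7.72, 7.49, 7.63 and 7.60 on the control arrays. The Pparg null arrays spread to both sides of the control ones, and the means differed by 0.036 (95% interval -0.27 to 0.34). Its ligand Ccl17 read 5.52, 5.49, 5.70 and 5.77 on the Pparg null arrays, against 5.54, 5.46, 5.39 and 5.47 on the control arrays. Pparg null arrays 3 and 4 were above all the others for Ccl17 (difference 0.15, 95% interval -0.01 to 0.32). Ccl22, the other Ccr4 ligand and a neighbour of Ccl17 on chromosome 8, read 5.80, 5.47, 5.37 and 5.57 on the Pparg null arrays, against 5.73, 5.56, 5.28 and 5.46 on the control arrays, without separation.

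Ccr10, which guides T cells to epidermis, read 6.62, 6.60, 6.46 and 6.65 on the Pparg null arrays, against 6.66, 6.42, 6.40 and 6.58 on the control arrays. Its mucosal ligand Ccl28 differed by -0.014, with the narrowest interval of the family (-0.15 to 0.12). Ccl20, through which epithelia attract Ccr6-bearing cells, read 6.10, 6.04, 5.81 and 6.34 on the Pparg null arrays, against 6.25, 6.20, 6.20 and 6.15 on the control arrays. The control values of Ccl20 were close together and lay inside the wider Pparg null range. Ccr6 read 4.83, 5.04, 4.74 and 5.01 on the Pparg null arrays, against 5.04, 5.16, 4.92 and 4.86 on the control arrays, also overlapping.

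Ccr7 and its ligand Ccl19, which bring dendritic cells and T cells to lymph nodes, differed by 0.078 and -0.024. Ccl19 had 5 rows on the array, 2 of them with identical values, and their differences ran from -0.11 to -0.024; rows of such repeated gene copies cannot be told apart. Ccl25, the thymic and gut ligand of Ccr9, read 7.17, 7.42, 7.03 and 7.12 on the Pparg null arrays, against 7.17, 7.17, 7.16 and 7.10 on the control arrays. Its second row differed by -0.054 where the brighter differed by 0.036, both small. Ccr9 differed by 0.17, with 1 high value of 5.94 on Pparg null array 4.

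Among homeostatic CXC ligands, Cxcl14 was bright on every array and slightly higher in Pparg null skin. Cxcl14, a chemokine that epithelia make constantly, read 10.43, 10.49, 10.48 and 10.48 on the Pparg null arrays, against 10.26, 10.24, 10.43 and 10.48 on the control arrays. Control arrays 1 and 2 lay lowest, control array 3 at the level of the lowest Pparg null array and control array 4 among the Pparg null arrays. The means were 10.47 ± 0.03 and 10.35 ± 0.12 (SD, n = 4 each), a difference of 0.12 (95% interval -0.03 to 0.26, limma adjusted p = 0.999959, exact permutation p = 0.0571).

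The promoter of Cxcl14 is shown for the brightest row. It lies on the - strand at chr13:56296552-56296801 (RefSeq, GRCm38.p6), it held no match to the NF-kB motif, and capitals mark its one AGGTCA half-site, read on the opposite strand.
Cxcl14: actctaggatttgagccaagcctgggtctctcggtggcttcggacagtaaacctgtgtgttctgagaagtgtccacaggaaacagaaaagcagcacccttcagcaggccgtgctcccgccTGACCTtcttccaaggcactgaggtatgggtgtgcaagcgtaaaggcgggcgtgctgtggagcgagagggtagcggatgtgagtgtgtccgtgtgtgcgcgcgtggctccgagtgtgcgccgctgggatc

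Cxcl12, the dermal and endothelial ligand that holds Cxcr4-bearing cells in place, read 7.86, 7.93, 7.98 and 7.59 on the Pparg null arrays, against 7.86, 8.03, 7.95 and 8.09 on the control arrays. Pparg null array 4 was lowest and the rest overlapped (difference -0.14, 95% interval -0.34 to 0.05). Cxcr4 read 8.89, 9.14, 8.91 and 8.86 on the Pparg null arrays, against 8.95, 8.93, 9.12 and 8.79 on the control arrays, with means within 0.0041 of each other. Both 95% intervals included 0, that of Cxcr4 running from -0.19 to 0.19.

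Cxcl16, a membrane-bound ligand that attracts Cxcr6-bearing T cells, read 6.42, 6.57, 6.22 and 6.41 on the Pparg null arrays, against 6.24, 6.60, 6.69 and 6.50 on the control arrays. Its receptor Cxcr6 read 5.14, 5.30, 5.06 and 5.34 on the Pparg null arrays, against 5.22, 5.18, 5.14 and 5.17 on the control arrays. Both overlapped between groups, and in opposite directions of small size (-0.099 and 0.033). Cxcl13, which draws B cells through Cxcr5, differed by -0.28, with control array 3 at 5.67 and the other 7 arrays between 4.64 and 5.25. Cxcr5 differed by 0.037, and the mucosal chemokine Cxcl17 by -0.13.

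The interferon-induced ligands Cxcl9, Cxcl10 and Cxcl11, which act on Cxcr3, a chemokine receptor of T cells, differed by -0.030, 0.041 and -0.085. Cxcl10 read 5.96, 5.90, 5.80 and 5.99 on the Pparg null arrays, against 6.02, 5.89, 5.64 and 5.93 on the control arrays. Cxcr3 read 6.08, 6.0, 6.01 and 6.21 on the Pparg null arrays, against 6.53, 6.0, 6.04 and 5.99 on the control arrays. Only control array 1 departed from the rest for Cxcr3. Of 12 measured interferon response genes 9 lay below control (median -0.13) and none passed the threshold; Ifit3 averaged 5.96 in Pparg null skin and 6.29 in control skin (limma unadjusted p = 0.0227), Stat2 7.86 and 7.97, and Irf9 7.62 and 7.69. The mean of the list, relative to all arrays, was 0.046, 0.12, -0.24 and -0.14 on Pparg null arrays 1 to 4, against -0.033, 0.015, 0.10 and 0.12 on control arrays 1 to 4. Only Pparg null arrays 3 and 4, those of the group with high Xist, lay below all control arrays, and Pparg null arrays 1 and 2 lay among them.

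The neutrophil attractants Cxcl1, Cxcl2, Cxcl3, Cxcl5 and Cxcl15 form one run on chromosome 5. All but Cxcl1 lay under the 30th percentile, and the 5 differed by -0.10 to 0.089, with 2 below control and 3 above. Their receptors Cxcr2 and Cxcr1, neighbours on chromosome 1, differed by -0.040 and -0.057. Neutrophil markers were dim too: 5 of 8 lay under the 30th percentile, with mean levels of 5.32 to 5.51 in Pparg null skin and 5.28 to 5.49 in control skin. Of 15 measured NF-kB target genes 9 lay above control and 6 below (median 0.0025), and Sele, the endothelial selectin that slows leukocytes, averaged 6.95 in Pparg null skin and 6.59 in control skin (limma unadjusted p = 0.00608, adjusted 0.947). The NF-kB inhibitor gene Nfkbia averaged 9.06 in Pparg null skin and 9.07 in control skin, and the adhesion molecule gene Vcam1 8.63 and 8.51.

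The promoters of the whole family, receptors included, were searched for motifs. RefSeq entries matched 34 of 48 members, Ccl7 and Ccl2 not among them. The NF-kB motif occurred within 250 bases before the start in 16 of these 34 genes, or 47.1%, where 19.7% of 27025 genes held it. It was found in 6 of 9 CXC ligands, 4 of 12 CC ligands, 5 of 8 CC receptors and 1 of 5 CXC receptors. The half-site AGGTCA occurred in 11 of the 34, or 32.4%, against 15.8% of all genes, and the full PPAR response element in 0, against 0.0407%. A match is a run of letters and not a bound site.

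The 120 bases before the start of Cxcl1, Cxcl2 and Cxcl3 are printed because they hold the same element GGGAATTTCCC. Those of Cxcl10 are printed as a promoter without that element. That element was found in 3 members and in 14 of all genes, and begins 71 bases before the start in Cxcl1, 97 in Cxcl2 and 73 in Cxcl3. Capitals mark matches to the NF-kB motif, which GGGAATTTCCC holds once on each strand. Cxcl10 held 2 matches to the NF-kB motif within 250 bases. The farther of these begins 159 bases before the start, outside the bases printed. The sequences are from RefSeq, GRCm38.p6, at chr5:90891125-90891244, chr5:90903779-90903898 and chr5:90785981-90786100 on the + strand and chr5:92348890-92349009 on the - strand.
Cxcl1: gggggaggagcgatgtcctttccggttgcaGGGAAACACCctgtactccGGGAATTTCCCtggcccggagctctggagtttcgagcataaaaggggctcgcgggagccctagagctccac
Cxcl2: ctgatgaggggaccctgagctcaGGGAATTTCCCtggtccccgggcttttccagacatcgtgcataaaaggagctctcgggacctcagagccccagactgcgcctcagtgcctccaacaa
Cxcl3: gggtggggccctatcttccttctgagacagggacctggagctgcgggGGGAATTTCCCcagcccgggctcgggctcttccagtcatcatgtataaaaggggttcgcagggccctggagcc
Cxcl10: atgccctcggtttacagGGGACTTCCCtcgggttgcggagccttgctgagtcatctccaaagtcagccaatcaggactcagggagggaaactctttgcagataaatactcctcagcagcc
The 3 genes with the shared element differed by -0.10, 0.089 and 0.033, and none of them was near the threshold.

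The wider chemokine system was read from lists of related genes. Of 5 atypical receptors, which act without G protein signalling, 4 lay above control and 1 below (median 0.14), and none passed. Ccrl2, which presents chemerin, averaged 5.73 in Pparg null skin and 5.53 in control skin (limma unadjusted p = 0.0317). The brightest of them, Ackr3 and Ackr4, averaged 7.09 and 7.04 in Pparg null skin and 6.94 each in control skin. Of 8 other chemoattractants and their receptors 7 lay below control (median -0.12). Rarres2, which encodes the adipocyte-made attractant chemerin, read 8.64, 8.63, 8.80 and 8.33 on the Pparg null arrays, against 8.82, 8.92, 8.84 and 9.06 on the control arrays. All 4 Pparg null values of Rarres2 were below all control values, with a difference of -0.31 (limma unadjusted p = 0.00953, adjusted 0.999959); its receptor Cmklr1 averaged 7.69 in both groups. Groups lower without overlap were found for 1.48% of all genes. Pf4, the platelet and macrophage chemokine, averaged 9.74 in Pparg null skin and 9.86 in control skin.

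Of 22 measured genes of chemokine receptor signalling, such as the G protein subunit Gnb1 and the GTPase Rac1, 14 lay below control and 8 above (median -0.01), and 0 had an unadjusted limma p under 0.05. Of 6 genes that shape chemokine presentation, such as the heparan sulfate carrier Sdc1 and the polymerase Ext1, 4 lay below and 2 above, with differences from -0.07 to 0.04. Pan-leukocyte markers averaged 8.44 to 8.53 on the Pparg null arrays and 8.44 to 8.54 on the control arrays. The brightest of them, Arhgdib and Laptm5, averaged 10.63 and 9.63 in Pparg null skin, against 10.59 and 9.55 in control skin. Of these 6 markers 2 lay below control and 4 above. Cd52, a lymphocyte surface glycoprotein, averaged 6.96 in Pparg null skin and 7.22 in control skin. It was the only one of the 6 with an unadjusted limma p under 0.05 (adjusted 0.999959), which 3.57% of all genes had. Langerhans and dendritic cell markers averaged 6.41 to 6.59 in Pparg null skin and 6.43 to 6.60 in control skin, B cell markers 5.32 to 5.55 and 5.34 to 5.65, and melanocyte markers 8.21 to 8.50 and 8.31 to 8.43. Below control lay 8 of 10, 3 of 4 and 3 of 5 of these markers, beside 49.4% of all genes. None of them had an unadjusted limma p under 0.05. Blood endothelial markers averaged 9.61 to 9.64 in Pparg null skin and 9.50 to 9.67 in control skin. Lymphatic markers averaged 8.21 to 8.34 and 8.21 to 8.37. Of 5 blood endothelial markers 2 lay below control and 3 above, and of 4 lymphatic markers 2 lay below and 2 above. Emcn, at 9.80 and 9.61, differed most in the first list, where Kdr went the other way (-0.081). Lyve1, at 9.95 and 10.14, differed most in the second, where Flt4 went the other way (0.057). No marker of either list passed the adjusted threshold.

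**Figure D4:**
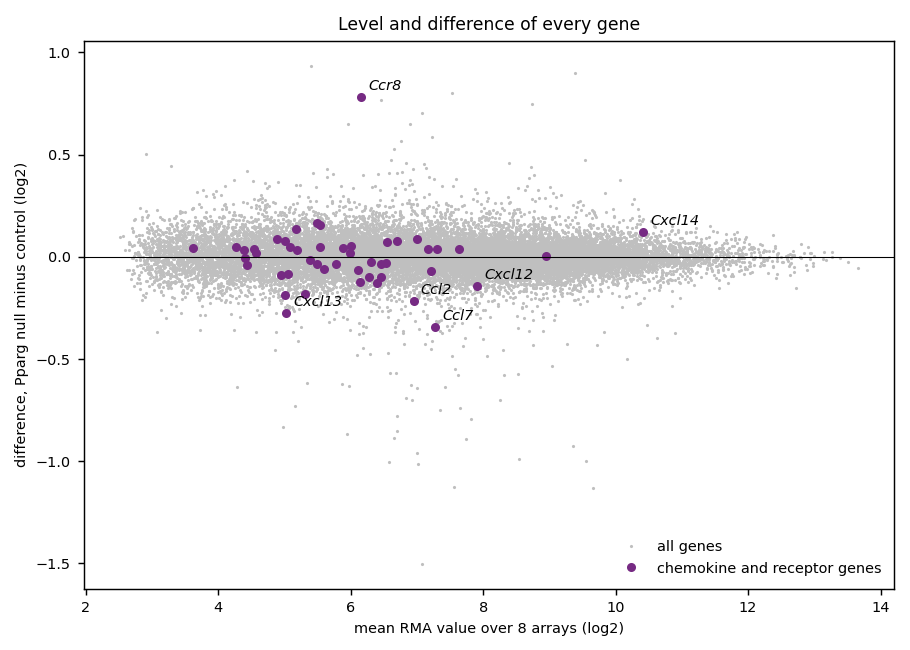
Mean RMA value over 8 arrays (log2, horizontal) and difference Pparg null minus control (log2, vertical) of all 19938 genes in grey and the 48 chemokine and receptor genes in purple. Most of the 48 lie within 0.1 of 0 among other genes of like level, with Ccr8 at 0.78 and Ccl7 at -0.35 farthest from it.

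Each of the 4 runs of 5 or 6 members held genes on both sides of control. The 48 genes lie on 11 chromosomes. Among those in the gene order used for the runs, 14 are on chromosome 11, 10 on chromosome 5 and 9 on chromosome 9. Cxcl11, also on chromosome 5, was not in that order. The run of Ccr9, Cxcr6, Ccr1, Ccr1l1, Ccr3 and Ccr2 on chromosome 9 had 4 members above control and 2 below, with differences from -0.19 to 0.17. By class, the median difference was 0.018 for CC ligands, -0.030 for CXC ligands, 0.053 for CC receptors and -0.018 for CXC receptors. The mean of the family on each array, relative to all arrays, was -0.0079, 0.029, -0.086 and 0.061 on Pparg null arrays 1 to 4, against 0.051, 0.013, -0.031 and -0.029 on control arrays 1 to 4. The highest and the lowest value thus both belonged to Pparg null arrays.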

How the data were processed

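The authors deposited log2 values; RMA and Affymetrix Expression Console are the tools named, per the submitters' processing notes, without versions. Filters: not given in the sources used here. Per the labels' protocols, 100 ng of total RNA was amplified and 5.5 μg of cDNA was labelled with biotin. RMA normalizes quantiles, so a shift of all genes cannot be seen. Scanner files were not used here, and the number of arrays limits precision.

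Of 35556 rows, 21789 had 1 symbol, updated through the gene ID for 21698 of them (RefSeq, GRCm38.p6). The brightest row stood for a gene, and dim rows were kept. Differences (Pparg null minus control) were fitted on 8 arrays without covariates by limma 3.58.1 (R 4.3.3; lmFit, eBayes, two-sided, Benjamini-Hochberg over 19938 genes, threshold 0.05). The step was tested on simulated data. Exact permutation used all 70 assignments. Members and lists were chosen with earlier results of these data known. Of the lists, some genes were not used here. Named with all 8 values were members with an unadjusted p under 0.05 or groups apart, the 10 brightest and set skin pairs; of lists, genes with such a p and, for most, the 2 brightest. Alternatives were filters, scalings, priors, array weights, a replicate block, rows averaged or apart, Xist, a threshold of 0.01, and arrays left out. Same-numbered arrays deviated with r = -0.22, 0.16, 0.085 and -0.069 over all genes. No clear pairing by number was seen, but these values cannot exclude one.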

Additional observations from a re-analysis of the deposited data

Results flagged for a closer look

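In 10 of 96 groups of 4 values, 1 array lay far from the other 3 by Dixon's criterion, from its gap as a share of the range; chance gives about 1 in 20, or 4.8. On Pparg null array 3, Ccl5 read 6.15 (others 6.52 to 6.54), Ccl12 5.48 (5.13 to 5.19), Ccr3 4.93 (all others 5.08) and Cxcl15 3.34 (3.70 to 3.75). Cxcr4 read 9.14 on Pparg null array 2 (8.86 to 8.91) and Ccr9 5.94 on Pparg null array 4 (5.44 to 5.48). Among the control arrays, Cxcr3 read 6.53 on array 1 (5.99 to 6.04), Cxcl9 6.47 on array 2 (all others 6.56), Ccl5 6.34 on array 3 (6.50 to 6.51) and Ccl25 7.10 on array 4 (7.16 to 7.17).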

How the results depend on the processing

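No setting brought a chemokine or receptor gene past the threshold: 0 of 849 refitted differences passed, with a lowest adjusted limma p of 0.258, for Ccr8 with a replicate block. The count of all genes past it was 16 in the report and ran from 3 to 12 with 1 array left out. Over the other settings the count ran from 0 to 20. It was 18 with a filter at the 30th percentile, 13 with one at the 50th, and 18 with arrays centred on their median. It was 1 with the replicate block, though whether the numbers pair the arrays is not known. With every row on its own it was 0, with Xist as covariate 4, and at an adjusted p of 0.01 it was 2. Without control array 1 and Pparg null array 4 it was 8. Leaving out 1 array gave -0.42 to -0.28 for Ccl7, 0.52 to 0.94 for Ccr8, -0.19 to -0.061 for Cxcl12, -0.31 to -0.10 for Ccl2 and -0.41 to -0.10 for Cxcl13. Of the 849 differences 793 kept their direction and 56 reversed, among genes that differed by at most 0.086; the cause was not tested. Cxcr4 became -0.0075 with arrays centred, Cxcl3 -0.0083 with array weights and Ccl25 -0.0088 with rows averaged. Without control array 1 and Pparg null array 4, Ccl1 became 0.011, Ccl28 0.0094, Ccl3 -0.073, Ccl6 -0.11, Ccr4 -0.044, Cxcl3 -0.014, Cxcl5 0.025 and Cxcr3 0.018. With 1 array left out, the differences that crossed 0 had these ranges: Ccl1 -0.081 to 0.012, Ccl11 -0.010 to 0.11, Ccl19 -0.076 to 0.024, Ccl22 -0.035 to 0.12, Ccl25 -0.042 to 0.089, Ccl26 -0.084 to 0.027, Ccl28 -0.046 to 0.027, Ccl3 -0.066 to 0.093, Ccl5 -0.074 to 0.062, Ccl6 -0.090 to 0.18, Ccl8 -0.042 to 0.098, Ccr1l1 -0.028 to 0.10, Ccr4 -0.081 to 0.14, Cxcl10 -0.035 to 0.091, Cxcl15 -0.045 to 0.14, Cxcl3 -0.023 to 0.072, Cxcl5 -0.058 to 0.077, Cxcl9 -0.075 to 0.016, Cxcr1 -0.14 to 0.014, Cxcr2 -0.15 to 0.041, Cxcr3 -0.12 to 0.065, Cxcr4 -0.060 to 0.061, Cxcr5 -0.052 to 0.11, Cxcr6 -0.012 to 0.082. With 4 arrays a group and many dim rows, small differences could not be resolved.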
